A study of Mus musculus with 8 samples.

Results

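A set of 10 genes was followed through 8 bulk RNA-seq libraries of mouse liver tumour organoids: the keratin genes Krt7, Krt8, Krt18 and Krt19, the cell surface genes Epcam, Prom1, Tspan8, Cd24a and Tm4sf4, and Spp1, which encodes the secreted protein osteopontin. They were chosen by name as genes of bile duct and liver progenitor cells, and each name matched 1 row of the count files, so 10 of 45777 listed genes are described. All 10 had enough counts to be among the 17038 genes tested between groups.

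Keratins are the intermediate filament proteins of epithelial cells, and a filament is built from pairs of a type II and a type I chain. Krt8 (type II) and Krt18 (type I) form the filaments of simple epithelia, hepatocytes included. Krt7 (type II) and Krt19 (type I) are in normal liver found in bile duct cells and in the progenitor cells of the ductular reaction, and in liver cancer KRT19 marks tumours with biliary or progenitor features. Epcam is an epithelial adhesion protein carried by bile duct and progenitor cells, Prom1 (CD133) is a pentaspan protein of membrane protrusions, Cd24a is a small glycosylated protein anchored by lipid, and Tspan8 and Tm4sf4 belong to the tetraspanin and L6 families of proteins with 4 membrane spans. Osteopontin is a secreted glycoprotein of the matrix that binds integrins and CD44 and is made by bile duct epithelium.

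Per the labels, all organoids were wild type in genotype and came from 4 lines, SNU-6621 and SNU-6622 with 1 library each and SNU-6624 and SNU-6625 with 3 each, described as hepatocellular carcinoma that arose with metabolic dysfunction-associated steatohepatitis (fatty liver with inflammation). The parental group held 4 untreated libraries, 1 from each line. The lenvatinib group held 1 library each of SNU-6624 and SNU-6625 treated with lenvatinib, a drug against liver cancer that blocks several receptor tyrosine kinases, VEGF and FGF receptors among them. The resistant group held 1 library each of lenvatinib-resistant cultures of those same 2 lines, and its treatment label is control; whether lenvatinib was present when they were harvested is not stated in the labels. No dose, exposure time or age of the mice is stated in the labels, and nothing says that libraries of 1 line came from separate cultures, so the p-values reflect spread among libraries that may be partly technical.

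Total counts lay between 49.01 and 61.03 M (megacounts) per library, and 3 counts, used as the floor, corresponded to 0.0505 to 0.0606 CPM (counts per megacount of effective library size, scaled by edgeR's TMM factors over the 8 libraries). Ribosomal RNA genes took 0.0942% to 0.1103% of the counts of parental libraries and 0.0411% to 0.0533% of the others, a difference in which preparation and group cannot be told apart. The summed level of 15 hepatocyte markers was 118 to 206 CPM in parental, 13.9 to 24.6 CPM in lenvatinib and 117 to 195 CPM in resistant libraries, with Alb, Serpina1a, Cps1 and Cyp7a1 at 0 counts in all 8, so these defining hepatocyte markers had no counts (a further marker, Tf, was not analysed here). Hnf4a, which gut epithelium also expresses, carried most of this sum in the parental and resistant libraries of SNU-6624 and SNU-6625. It had 92.5 and 147 CPM in parental, 5.36 and 10.05 in lenvatinib and 109 and 138 in resistant libraries. The summed level of 14 cholangiocyte markers, 6 of them among the 10 genes, was 6989 to 8568, 1945 to 2333 and 11669.6 to 11978 CPM in the same order. Of the 14 markers, 10 had 10 CPM or more in every parental line, and the secretin receptor gene Sctr was at 0. Krt19 and Krt7 carried most of this sum in parental and resistant libraries, so it largely restates the 10 genes. The summed level of 13 markers of intestinal epithelium was 1965 to 3449, 142 to 224 and 1551 to 2670 CPM, with Cdx1 and Reg4 at 0. Highest of these in the parental lines were Lgals4 (mean 1210 CPM), Cdh17 (640) and Krt20 (426). Under lenvatinib 7 of the 8 tested had log2 fold changes below 0. The exception was Muc2, at 5.98 and 8.88 CPM against 1.55 and 1.60 CPM in parental SNU-6624 and SNU-6625 (adjusted p = 0.0739, edgeR). Fibroblast and stellate markers summed to at most 25.2 CPM, endothelial markers to at most 18.2 CPM and lymphocyte markers to at most 0.846 CPM. Macrophage markers summed to 57.2 to 167, 47.1 to 59.0 and 87.1 to 177 CPM, with Cd14 and Cd68 above 10 CPM in every parental line and Ptprc, Adgre1, Clec4f, Lyz2 and C1qa at 0.

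In build mm10 (positions from the RefSeq table of GRCm38.p6, matched by the NCBI gene number in the files) the keratin genes lie in the 2 keratin clusters: Krt7 (gene 110310) at chr15:101412403-101427806 on the plus strand, Krt8 (gene 16691) at chr15:101996711-102004342 on the minus strand, Krt18 (gene 16668) at chr15:102028216-102032026 on the plus strand, and Krt19 (gene 16669) at chr11:100140810-100145926 on the minus strand. Krt8 and Krt18, the filament pair, are neighbours with 23874 bases between them, and Krt18 is the type I gene that lies with the type II cluster. Epcam (gene 17075) is at chr17:87635979-87651127 (plus), Prom1 (gene 19126) at chr5:43993621-44102047 (minus), Tspan8 (gene 216350) at chr10:115816817-115849893 (plus), Cd24a (gene 12484) at chr10:43579169-43584265 (plus), Tm4sf4 (gene 229302) at chr3:57425410-57441677 (plus) and Spp1 (gene 20750) at chr5:104435111-104441053 (plus). The counts are of whole genes, so exons, introns and UTRs are not separated. A processed copy of Krt8, Krt8-ps on chromosome 7, held 0.911% to 1.42% as many counts as Krt8, and which of the 2 its reads came from cannot be told apart. Genes on the opposite strand overlap Krt7 (Gm671, 283 to 514 counts) and Krt8 (Gm36026, 60 to 539 counts), and how strand was used in counting is not given in the sources used here.

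The sequences just upstream of the start sites are shown for the 3 genes with the largest fall under lenvatinib that have an entry in the RefSeq promoter table, and for Epcam, whose level moved least. The table (GRCm38.p6) holds entries for 8 of the 10 genes, not for Krt19 and Cd24a. Each run is the 250 bases before an annotated start site, and capitals mark matches to 7 short motifs searched on both strands.

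Tm4sf4, chr3:57425160-57425409, plus strand: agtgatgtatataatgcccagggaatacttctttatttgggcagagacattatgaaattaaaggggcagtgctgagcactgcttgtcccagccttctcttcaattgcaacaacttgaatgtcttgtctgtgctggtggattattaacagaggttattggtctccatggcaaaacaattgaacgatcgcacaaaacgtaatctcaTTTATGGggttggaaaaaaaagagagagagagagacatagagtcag

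Tspan8, chr10:115817034-115817283, plus strand: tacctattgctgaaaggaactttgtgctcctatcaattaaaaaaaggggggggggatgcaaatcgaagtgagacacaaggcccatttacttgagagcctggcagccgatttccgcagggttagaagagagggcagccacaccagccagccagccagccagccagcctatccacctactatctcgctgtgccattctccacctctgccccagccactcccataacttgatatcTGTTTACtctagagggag

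Spp1, chr5:104434861-104435110, plus strand: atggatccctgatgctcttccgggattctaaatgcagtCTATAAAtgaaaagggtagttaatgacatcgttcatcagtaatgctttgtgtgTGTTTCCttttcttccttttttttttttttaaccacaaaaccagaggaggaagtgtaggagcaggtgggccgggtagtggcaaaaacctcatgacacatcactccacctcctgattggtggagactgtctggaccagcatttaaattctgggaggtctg

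Epcam, chr17:87635729-87635978, plus strand: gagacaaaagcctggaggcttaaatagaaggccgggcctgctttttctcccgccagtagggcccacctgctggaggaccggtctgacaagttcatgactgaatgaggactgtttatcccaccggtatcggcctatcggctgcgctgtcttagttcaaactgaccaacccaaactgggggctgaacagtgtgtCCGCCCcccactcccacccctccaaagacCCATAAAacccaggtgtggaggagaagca

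The Tspan8 run ends at a start site that lies inside the gene span given above. The motifs were TATAAA (core promoter box), GGGCGG (GC box), TGANTCA (AP-1), CAAAGNNCA (HNF4 core), TGTTTNC (FOXA core), GGAATG (TEAD core) and TTTATNG (CDX core, which can overlap the first of these). Over 10 promoter entries of the genes (Prom1 and Spp1 have 2 each), TGTTTNC was found in 3 (Tspan8, Spp1 and Krt18), TTTATNG in 3 (Tm4sf4, Spp1 and Epcam), GGGCGG in 3 (Krt7 with 4 matches, Epcam and Prom1), TGANTCA in 2 (both of Prom1), TATAAA in 1 (Spp1) and CAAAGNNCA and GGAATG in 0. The shares of all 32851 promoter entries of this length with a match were 17.8% for TGTTTNC, 9.81% for TTTATNG, 32.7% for GGGCGG, 6.75% for TGANTCA, 12.4% for TATAAA, 5.49% for CAAAGNNCA and 12.6% for GGAATG. The Tm4sf4 and Spp1 sequences shown hold 40.8% and 43.6% G and C, Tspan8 52.4% and Epcam 56.4%, with a median of 52.4% over all entries. These matches describe letters only.

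The title of the series speaks of characterising the organoids, and the untreated lines come first. The 10 genes together took 1.17% to 1.46% of all counts in the 4 parental lines, and the 4 keratins alone 0.862% to 1.14%. Per kb of transcript, Krt19, Krt8 and Krt18 stood at places 7, 14 and 18 among 17589 genes with a count and a known length, Krt7 at 96, Prom1 at 126, Tspan8 at 144, Cd24a at 219, Epcam at 241, Tm4sf4 at 904 and Spp1 at 2801. The places of Spp1 and Tm4sf4 depend on single lines: Spp1 stood at 8180 without SNU-6621, and Tm4sf4 at 1435 without SNU-6625.

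Of the type I keratins, Krt19 had 2697, 3254, 2957 and 3047 CPM in the lines taken by number, SNU-6621 and SNU-6622, then SNU-6624 and SNU-6625 (mean 2989 ± 231, SD, n = 4 lines). Krt18 had 1375, 2285, 1838 and 1858 CPM in the same order (1839 ± 371). Krt19 was close to even over the lines, with a highest to lowest ratio of 1.21, and Krt18 was lowest in SNU-6621. Of the type II keratins, Krt8 had 1849, 3441, 2438 and 3157 CPM (2721 ± 719) and Krt7 2414, 2723, 2361 and 2019 CPM (2379 ± 289). SNU-6621 was again the lowest line for Krt8, while Krt7 was lowest in SNU-6625. Counts of the 2 type II genes together were 1.05, 1.11, 1.001 and 1.06 times those of the 2 type I genes.

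Among the surface genes, Prom1 was the highest, at 1809.8, 1517, 1137 and 1383 CPM (1462 ± 280.4). The related gene Prom2 had fewer counts, and the Prom1 to Prom2 ratio ran from 6.45 in SNU-6625 to 20.3 in SNU-6621. Tspan8 had 699, 589, 479 and 566 CPM (583 ± 90.5), and Epcam 398, 608, 381 and 471 CPM (464 ± 104). Cd24a had 919, 288, 312 and 302 CPM, so 3 lines lay close together and SNU-6621 stood above them. The mean of 456 CPM was 301 CPM without that line. Tm4sf4 had 13.9, 174, 35.2 and 215 CPM, low in SNU-6621 and SNU-6624 and high in the other 2, a highest to lowest ratio of 15.5. Spp1, the secreted member, had 129, 9.75, 3.55 and 11.005 CPM, and its mean of 38.4 CPM was 8.10 CPM without SNU-6621.

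**Figure D1:**
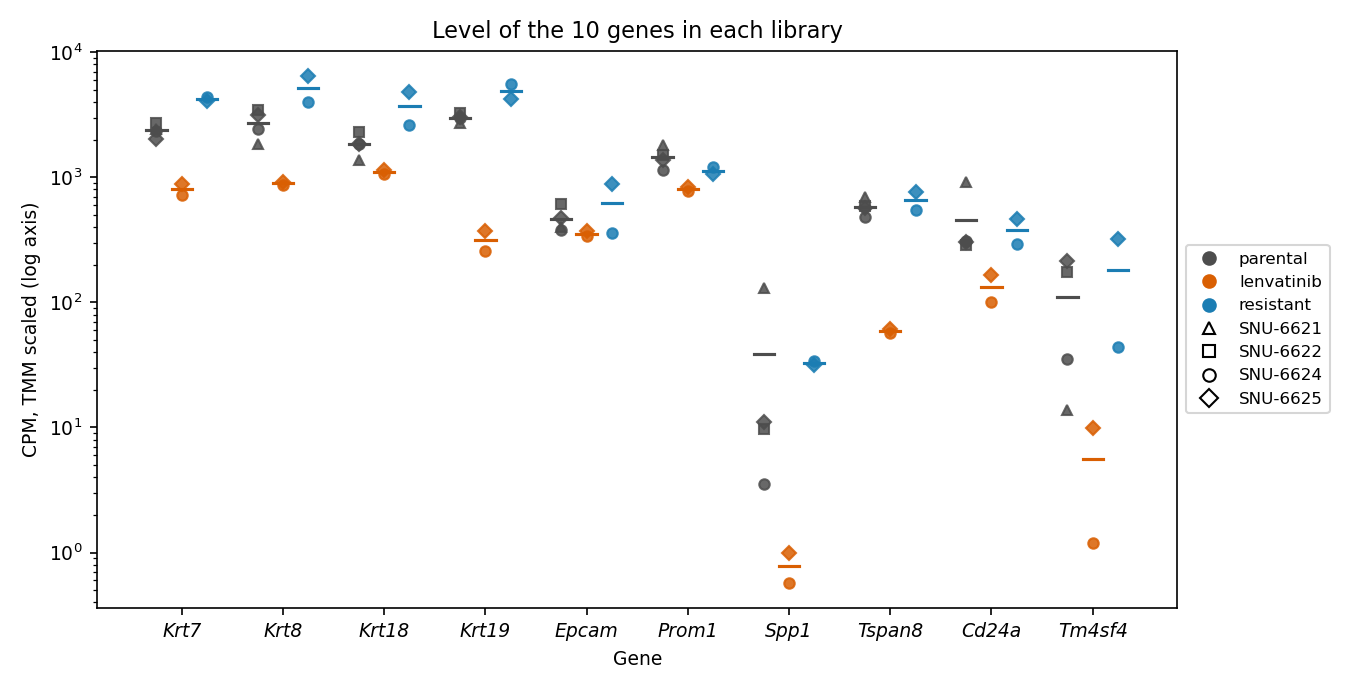
TMM-scaled CPM on a log axis for each of the 10 genes, with 1 point per library, coloured by group and shaped by line, and a short bar at each group's mean. The 2 lenvatinib points lie below all 4 parental points for each gene, narrowly for Epcam (337 and 369.9 against 381 CPM and above), and Spp1, Cd24a and Tm4sf4 spread most over the parental lines. Against the parental points of SNU-6624 and SNU-6625 alone, 36.5% of all tested genes lay lower without overlap. The share against all 4 parental points is not reported here.

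The spread over the 4 lines differed between members. The SD of log2 CPM had a median of 0.30 over the 10 genes, against 0.20 over the 7831 tested genes with a mean of 20 CPM or more. Krt19 varied less than most, with 21.2% of those genes below its SD, and Krt7 lay at 43.8% and Tspan8 at 55.8%. Prom1, Krt18, Epcam and Krt8 lay between 66.4% and 79.7%, and Cd24a, Tm4sf4 and Spp1 at 92.5%, 98.1% and 98.7%. Differences between lines have no test, since each line had 1 parental library.

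Set side by side per kb of transcript, the parental order was Krt19 (1896 ± 147 CPM per kb), Krt8 (1389.8 ± 367), Krt18 (1279.8 ± 259), Krt7 (581 ± 70.5), Prom1 (467 ± 89.6), Tspan8 (422 ± 65.5), Cd24a (251 ± 170), Epcam (228 ± 50.8), Tm4sf4 (73.2 ± 66.7) and Spp1 (27.2 ± 43.0), each as mean ± SD over 4 lines. Of the 9 neighbouring pairs in this order, the ranges over lines overlapped for 7 and did not for Krt18 over Krt7 and Epcam over Tm4sf4. Cd24a stood above Epcam through SNU-6621: without that line Epcam had 239 and Cd24a 166 CPM per kb. The places of Krt7 and Cd24a also depend on the length used: per kb of coding sequence, Krt7 stood above Krt18 and the mean of Cd24a above that of Krt8. The latter (1998 ± 1357 against 1851 ± 489 CPM per coding kb) again held through SNU-6621 alone.

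Lenvatinib against parental asks how the drug changes these organoids. After lenvatinib the 10 genes took 0.437% and 0.518% of counts in SNU-6624 and SNU-6625, and untreated libraries of the same lines 1.17% and 1.32%. Tm4sf4, Krt19, Tspan8 and Spp1 fell by 3.10 to 4.62 on the log2 scale, and the other 6 were lower in both lines without passing the test. Thus 4 of 10 were called lower and 0 higher at an adjusted p under 0.05 (edgeR's quasi-likelihood F test, Benjamini-Hochberg over all genes tested), against 4.08% of all tested genes called lower and 1.7% called higher (5.78% either way). The median log2 fold change was -1.52 over the 10 genes and -0.01 over all genes. In bulk RNA, fewer cells that carry a message and less of it per cell cannot be told apart. The summed hepatocyte markers and the summed intestinal markers were lower in the same libraries, as given above, and their part in the result was not tested. In parental SNU-6624 and SNU-6625 the hepatocyte sum was mostly Hnf4a. Scaled by library size alone, 43.4% of all calls were higher, against 29.3% with TMM, and 4 members were again called lower. The share of all tested genes called with that scaling is not reported here.

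Among the keratins of the set, Krt19 showed the largest fall. Its counts were 175697 and 150911 in the parental libraries of these 2 lines and 15094 and 22007 after lenvatinib, or 256 and 372 CPM, so both treated libraries lay far below all 4 parental ones. Its log2 fold change was -3.25 (SE 0.38, 95% interval -4.27 to -2.23, adjusted p = 0.0371, edgeR). The other keratins of the set were less far below parental, while some keratins outside it, given below, fell further than Krt19. Krt8 had 869 and 925 CPM after lenvatinib (log2 fold change -1.61, SE 0.32, adjusted p = 0.0623, edgeR). Krt7 had 718 and 885 CPM (-1.44, SE 0.30, adjusted p = 0.0656), and neither passed the test in edgeR. Krt18 had 1066 and 1142 CPM, below the 1375 CPM of the lowest parental library, with a log2 fold change of -0.73 whose 95% interval ran from -1.64 to 0.18 (adjusted p = 0.221, edgeR).

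Of the surface genes, Tspan8 and Tm4sf4 were called lower. Tspan8 had 28455 and 28013 parental and 3358 and 3631 lenvatinib counts, or 56.9 and 61.4 CPM after the drug, with a log2 fold change of -3.12 (SE 0.22, adjusted p = 0.0275, edgeR). The treated level was 0.119 and 0.109 times the parental level in the 2 lines, so the lines were alike. Tm4sf4 had 2091 and 10634 parental and 71 and 589 lenvatinib counts, or 1.20 and 9.96 CPM after the drug. Its lines differed in level by several fold in both groups, yet the treated level was 0.0342 and 0.0464 times the parental one, with a log2 fold change of -4.62 (SE 0.19, adjusted p = 0.0275, edgeR). This call rests on line as a term, since the adjusted p was 0.142 without the replicate block.

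Cd24a had 101 and 166 CPM after lenvatinib, below all 4 parental libraries (log2 fold change -1.25, SE 0.26, adjusted p = 0.0641, edgeR). Prom1 had 784 and 831 CPM, also below the lowest parental value of 1137 CPM, with a log2 fold change of -0.63 and an interval from -1.29 to 0.03 (adjusted p = 0.171). Epcam was the member nearest to its parental level, at 337 and 369.9 CPM against 381 and 471 CPM in the same lines, with a log2 fold change of -0.24 and an interval from -1.16 to 0.69 (adjusted p = 0.675). Its lenvatinib values lay below the lowest parental value, 381 CPM, by less than the spread of the parental lines. The secreted member Spp1 had 211 and 545 parental and 34 and 59 lenvatinib counts, the latter with exact Poisson 95% intervals of 23.5 to 47.5 and 44.9 to 76.1 counts, which cover counting error only. Its log2 fold change was -3.10 (SE 0.51, adjusted p = 0.0479, edgeR), with an adjusted p of 0.0512 without the replicate block.

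For all 10 genes both lenvatinib libraries lay below both parental libraries of the same lines, a pattern that 36.5% of all tested genes shared. The 4 calls depend on each compared library: with any 1 of the parental or lenvatinib libraries of SNU-6624 or SNU-6625 left out, 0 members and 0 genes were called, and with resistant SNU-6624 or SNU-6625 left out, 9 members were called lower, among 7798 and 7769 genes called. Without the replicate block 3 members were called lower, Krt19, Tspan8 and Krt7 (adjusted p = 0.0446, edgeR). DESeq2 called 8 members lower, against 13.7% of all tested genes lower and 21.4% either way.

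**Figure D2:**
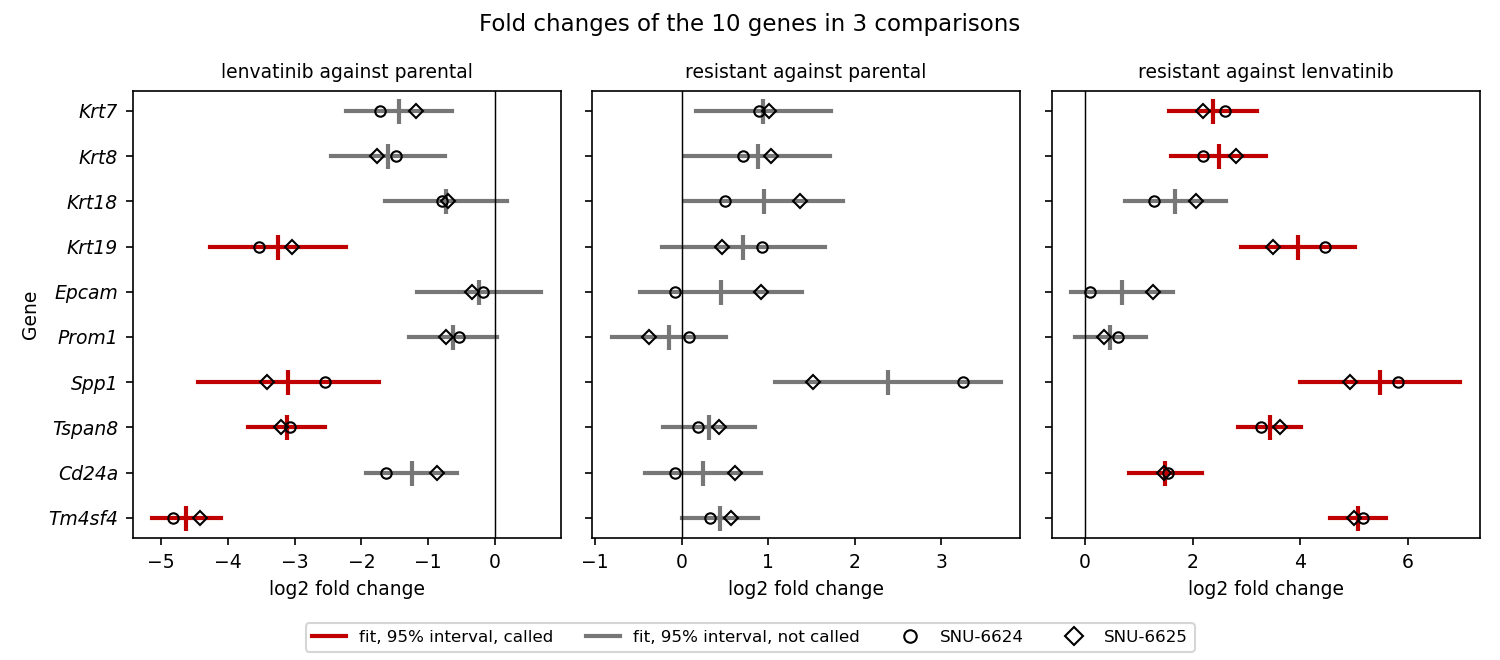
Log2 fold change of each gene in the 3 comparisons, with the fitted value (tick), its 95% interval (line, red where the adjusted p was under 0.05) and the 2 single-line differences (circle SNU-6624, diamond SNU-6625), on axes that differ between panels. Lines agree in direction for all 10 genes under lenvatinib, with Tm4sf4 lowest at -4.62, and Epcam, Prom1 and Cd24a split between lines in resistant against parental.

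Resistant against parental asks whether cultures grown resistant differ from the lines they came from. No gene was called: 0.0% of the 17038 genes passed (edgeR, smallest adjusted p 0.247), with 2715 genes (15.9%) at an unadjusted p under 0.05 and 0 calls by limma-voom. The 10 genes took 1.92% and 2.01% of counts in resistant SNU-6624 and SNU-6625, more than in any parental line, with a median log2 fold change of 0.58 against -0.01 over all genes and 9 of 10 values above 0. DESeq2 called 1104 genes (6.48%), 536 of them higher (3.15%), among them Krt7, Krt8, Krt18 and Spp1 of the 10. Without resistant SNU-6624, edgeR called 5819 genes and 5 members higher, and without resistant SNU-6625 580 genes and 1 member.

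All 4 keratins had their highest levels of the study in the resistant cultures. Krt7 had 4384 and 4051 CPM, Krt8 3994 and 6448, Krt18 2606 and 4779, and Krt19 5609 and 4207 CPM in SNU-6624 and SNU-6625. None of these ranges reached down to the highest of the 4 parental values, 2723, 3441, 2285 and 3254 CPM in that order. The share of all tested genes above all 4 parental values is not reported here. The lines differed in which keratin was furthest above parental: Krt18 was 1.42 and 2.57 times its parental level and Krt19 1.90 and 1.38 times. The log2 fold changes were 0.94 for Krt7 (SE 0.30), 0.88 for Krt8 (SE 0.32), 0.95 for Krt18 (SE 0.35) and 0.71 for Krt19 (SE 0.35), with adjusted p-values of 0.279, 0.304, 0.307 and 0.383 (edgeR). With DESeq2 the adjusted p was 0.00327 for Krt7, 0.0181 for Krt8 and 0.0400 for Krt18.

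Spp1 had 34.2 and 31.4 CPM in the resistant libraries, above the 3.55 and 11.005 CPM of the same parental lines and below the 129 CPM of parental SNU-6621. Its log2 fold change was 2.38 (SE 0.49, interval 1.08 to 3.69, adjusted p = 0.247 in edgeR and 0.000187 in DESeq2), the largest of the 10. Among surface genes, Tspan8 had 546 and 761 CPM (log2 fold change 0.31, SE 0.20) and Tm4sf4 44.2 and 319 CPM (0.44, SE 0.16), each above parental in both lines, with adjusted p-values of 0.466 and 0.309. Epcam had 361 and 892 CPM, so it was near parental in SNU-6624 and 1.89 times parental in SNU-6625. Cd24a had 295 and 462 CPM and Prom1 1202 and 1063 CPM, and for these 3 genes the sign differed between the lines. Of the 10 genes, the 4 keratins and Spp1, 5 in all, had both resistant libraries above both parental libraries of these lines, as did 23.1% of all tested genes.

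Resistant against lenvatinib sets the resistant cultures, whose exposure at harvest is not stated in the labels, against the treated libraries of the same lines. It shares the lenvatinib libraries with the first comparison, and the other 2 comparisons share the parental ones, so the 3 sets of values are not independent. Spp1, Tm4sf4, Krt19, Tspan8, Krt8, Krt7 and Cd24a were called higher, by 1.49 to 5.48 on the log2 scale. Thus 7 of 10 members were called higher and 0 lower (edgeR), against 4.14% of all tested genes called higher and 2.08% lower (6.23% either way). The median log2 fold change was 2.43 over the 10 genes and 0.02 over all genes. Scaled by library size alone, 47.3% of all calls were higher, against 66.5% with TMM, and the median over all genes was -0.14. With that scaling 8 members were called higher, and the share of all tested genes called is not reported here. The share of ribosomal RNA was 0.0448% and 0.0533% in lenvatinib and 0.0411% and 0.0416% in resistant libraries, without overlap. Its part in the result was not tested.

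Of the keratins, Krt19 was 21.9 times as high in resistant as in lenvatinib SNU-6624 and 11.3 times in SNU-6625 (log2 fold change 3.96, SE 0.40, adjusted p = 0.0304, edgeR). Krt8 (2.48, SE 0.33, adjusted p = 0.0380) and Krt7 (2.38, SE 0.31, adjusted p = 0.0372) also rose. Krt18 was 2.44 and 4.19 times as high and missed the threshold (1.68, SE 0.35, adjusted p = 0.0640, edgeR).

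Spp1, at 34 and 59 counts in lenvatinib and 1738 and 1673 in resistant libraries, had the largest difference (5.48, SE 0.56, adjusted p = 0.0311, edgeR). Tm4sf4 followed (5.07, SE 0.20, adjusted p = 0.0174), then Tspan8 (3.43, SE 0.22, adjusted p = 0.0174) and Cd24a (1.49, SE 0.26, adjusted p = 0.0487). Without the replicate block the adjusted p was 0.122 for Tm4sf4 and 0.0573 for Cd24a, so those 2 calls rest on line as a term. Epcam (0.69, interval -0.25 to 1.64, adjusted p = 0.266) and Prom1 (0.47, interval -0.18 to 1.13, adjusted p = 0.275) were not called. The resistant and lenvatinib libraries did not overlap for 9 of the 10 genes, Epcam being the exception, against 28.4% of all tested genes that were higher without overlap. With parental SNU-6624 or SNU-6625 left out 2 and 3 members were called (90 and 118 genes), with either lenvatinib library left out 0 members and 0 genes, and with resistant SNU-6624 or SNU-6625 left out 9 members each (6286 and 5867 genes).

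Because the members changed by unequal amounts, their proportions inside a library changed, and such ratios of raw counts need no scaling between libraries. The Krt19 to Krt18 ratio was 1.42 to 1.96 in the 4 parental libraries, 0.240 and 0.326 in the lenvatinib libraries and 2.15 and 0.880 in the resistant libraries of SNU-6624 and SNU-6625. Both lenvatinib values lay below every other library, and the 2 resistant cultures fell on opposite sides of the parental range. The Krt8 to Krt18 ratio was 1.33 to 1.70 in parental, 0.815 and 0.811 in lenvatinib and 1.53 and 1.35 in resistant libraries. The Krt7 to Krt8 ratio, between the 2 type II genes, overlapped in all groups (0.639 to 1.31, then 0.826 and 0.956, then 1.10 and 0.628).

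The Krt19 to Epcam ratio was 5.35 to 7.77 in parental, 0.758 and 1.01 in lenvatinib, and 15.6 and 4.72 in resistant libraries. The Epcam to Tspan8 ratio, for 2 surface proteins of the same kind of epithelium, was 0.569 to 1.03, then 5.93 and 6.02, then 0.660 and 1.17. In both ratios the lenvatinib libraries stood apart from the other 6. Summed over both chain types, type II counts were 1.001 to 1.11 times type I counts in parental, 1.20 in both lenvatinib and 1.02 and 1.17 in resistant libraries.

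**Figure D3:**
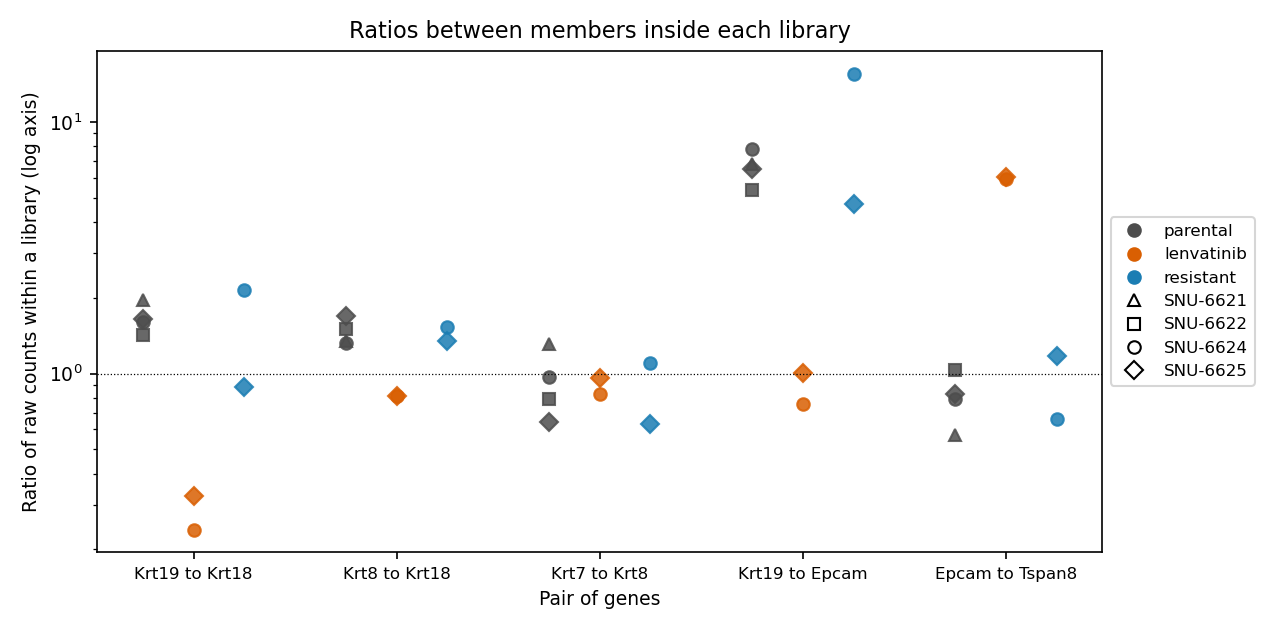
Ratios of raw counts between pairs of the genes within each library, on a log axis, with a dotted line at 1, points coloured by group and shaped by line. The lenvatinib points lie apart from the rest for Krt19 to Krt18 (0.240 and 0.326), Krt8 to Krt18, Krt19 to Epcam and Epcam to Tspan8 (5.93 and 6.02), and lie among them for Krt7 to Krt8.

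Per kb of transcript, Krt19 made up 34.0% to 40.7% of the 4 keratins in parental libraries, 10.7% and 13.7% in lenvatinib and 42.0% and 26.0% in resistant libraries. Krt18 had 22.8% to 26.2%, then 48.7% and 46.2%, then 21.4% and 32.4%. Krt8 stayed between 22.5% and 32.0% and Krt7 between 9.25% and 14.04% over all 8 libraries. The order of the 10 genes changed with this: under lenvatinib Krt18 led at 768 ± 37.1 CPM per kb (n = 2), followed by Krt8 (458 ± 20.5), Prom1 (258 ± 10.7), Krt19 (199 ± 52.3) and Krt7 (196 ± 28.9), and Krt19 and Krt7 overlapped. In resistant cultures Krt19 (3114 ± 629), Krt8 (2666 ± 886) and Krt18 (2569.5 ± 1069) led again, with overlapping ranges.

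**Figure D4:**
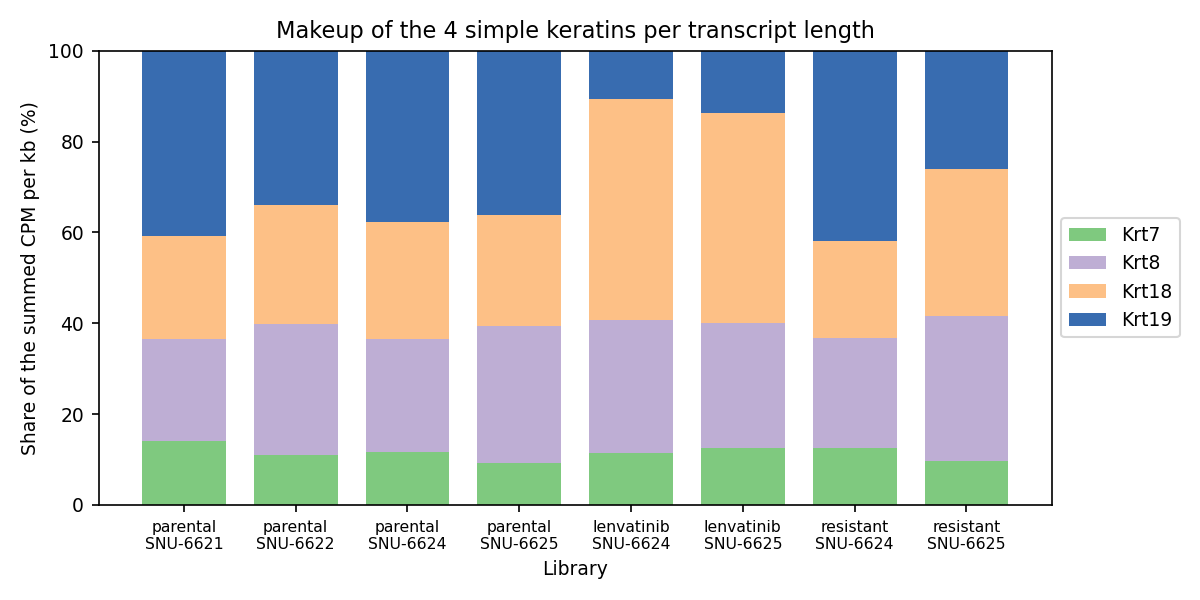
Stacked bars of the share of Krt7, Krt8, Krt18 and Krt19 in their summed CPM per kb of transcript, in percent, 1 bar per library. Krt19 holds 10.7% and 13.7% in the 2 lenvatinib bars against 26.0% to 42.0% in the other 6, and Krt18 holds 48.7% and 46.2% there.

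The 4 keratins were set against the rest of their family. The files list 53 keratin genes, of which 31 were tested, 10 had 20 CPM or more in every parental line and 13 had at most 3 counts in all 8 libraries. The 4 genes held 64.1% to 83.7% of keratin counts in parental, 94.9% and 94.4% in lenvatinib and 77.0% and 92.3% in resistant libraries. Of a list of 19 other keratins, the highest parental levels belonged to Krt4 (1503 ± 239.6 CPM), Krt84 (444 ± 873, with 1753 CPM in SNU-6621), Krt20 (426 ± 238) and Krt6a (157 ± 169). Under lenvatinib 3 of the 17 tested were called lower and 0 higher (against 4.08% and 1.7% of all tested genes): Krt15 (log2 fold change -5.43), Krt20, a keratin of intestinal and other simple epithelia (-2.84), and Krt80 (-2.02). The list's median was -3.15. Krt4 had 87.8 and 104 CPM after lenvatinib against 1714 and 1384 CPM, but 3709 and 236 CPM in the resistant lines, and it was not called (adjusted p = 0.113 under lenvatinib, edgeR).

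In resistant against lenvatinib, 5 of the 17 other keratins were called higher and 0 lower (against 4.14% and 2.08% of all tested genes): Krt15 (6.21), Krt79 (3.84), Krt20 (3.57), Krt80 (2.80) and Krt84, which is listed at 0 counts in both lenvatinib libraries and had 2.74 and 0.376 CPM in the resistant ones. The median was 3.84, or 3.71 with the 2 genes at 0 in lenvatinib (Krt1 and Krt84) placed at the floor of 3 counts per library. Against parental 0 of 17 were called in resistant cultures (median 0.67). A list of desmosome genes and other partners of keratins also holds the epsin Epn3 and the transcription factor Trp63. Of its 12 genes, 1 was called lower under lenvatinib (Dsc2, -1.34), against 4.08% of all tested genes, with a median of -0.90. In resistant against lenvatinib 4 of 12 were called higher, against 4.14% of all tested genes, with a median of 1.18. These were the desmosome genes Dsc2 (2.09), Pkp3 (1.74) and Dsp (1.27) and the endocytic gene Epn3 (1.75). Dsp, the desmoplakin that ties filaments to the junction, had 439 to 748 CPM in parental, 414 and 338 in lenvatinib and 1008 and 829 in resistant libraries.

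The other bile duct genes form a list of their own. Of its 22 genes, 19 were tested. Under lenvatinib 12 of their log2 fold changes were below 0 and 7 above, with a median of -0.63. Of the 19, 2 were called lower and 0 higher (against 4.08% and 1.7% of all tested genes). The 2 were the mucin Muc1 (-3.62, on 17 and 37 lenvatinib counts) and Pkhd1 (-1.87), the ciliary protein of polycystic disease. Among the 7 above 0 were Cldn4 (1.15, adjusted p = 0.146) and Sox9 (0.56, adjusted p = 0.308, edgeR). Cldn4 had 581 and 475 CPM in lenvatinib against 264 and 216 CPM in parental SNU-6624 and SNU-6625. Sox9, one of the cholangiocyte markers, had 32.9 and 45.3 CPM in those parental libraries, 53.0 and 58.0 in lenvatinib and 77.0 and 198 in resistant libraries. The highest of the list in parental lines were Anxa4 (779 ± 355 CPM), Cdh1 (644 ± 35.3), Spint2 (615 ± 94.0) and Cldn4 (277 ± 52.9). Cdh1, the epithelial cadherin, had 937 and 672 CPM in lenvatinib and 971 and 2396 CPM in resistant libraries, against 616 and 645 CPM in parental SNU-6624 and SNU-6625, all above the parental values of those lines. It was not called (adjusted p = 0.609 under lenvatinib, edgeR). In resistant against lenvatinib 1 of 19 was called higher and 0 lower (against 4.14% and 2.08% of all tested genes), a share near that of all genes, and against parental 0 (medians 1.04 and 0.19).

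Progenitor surface genes outside the 10 had 2 of 12 tested called lower under lenvatinib and 0 higher (against 4.08% and 1.7% of all tested genes), Lgr5 (-5.48), the R-spondin receptor of epithelial stem cells, and Ly6a (-2.83), the antigen Sca-1, with a median of -0.96. Ly6a had 914 to 3355 CPM in parental, 275 and 271 in lenvatinib and 1652 and 926 in resistant libraries. In resistant against lenvatinib 3 of 12 were called higher (against 4.14% of all tested genes), Lgr5 (5.63), Ly6d (3.20) and Ly6a (2.18), with a median of 1.02, and against parental 0 (median 0.19). Among relatives of Tspan8 and Tm4sf4, 3 of 16 were called lower under lenvatinib (against 4.08% of all tested genes), Tspan1 (-2.89), Tm4sf1 (-2.87) and Tspan7 (-1.26), and 0 higher, with a median of -0.21. The broadly expressed tetraspanins Cd81 (339 and 385 CPM after lenvatinib, 298 and 321 CPM in the same parental lines) and Cd9 (153 and 228 against 248.7 and 256 CPM) were not called. In resistant against lenvatinib Tm4sf1 (4.37) and Tspan1 (2.72) were called higher, 2 of 16 against 4.14% of all tested genes, with a median of 0.16, or 0.38 with Tm4sf20, at 0 in the resistant libraries, placed at the floor.

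Of the receptors of osteopontin and its relatives, 0 of 5 tested were called (edgeR) in any comparison, with medians of 0.06 under lenvatinib, 0.38 in resistant against parental and 0.32 in resistant against lenvatinib. In the same order, 5.78%, 0.0% and 6.23% of all tested genes were called either way, so 0 of 5 is near the share of all genes. The integrin chain Itgb1 had 476 and 422 CPM in lenvatinib against 504 and 549 CPM in parental libraries, and the hyaluronan receptor Cd44 225 and 124 against 438 and 436 CPM. Of 21 tested transcription factors of liver and gut epithelium, 3 were called lower under lenvatinib (against 4.08% of all tested genes), among them Hnf4a (-3.97) and Ehf (-1.14), and 0 higher, with a median of -0.11. The levels of Hnf4a, a factor of hepatocytes and gut epithelium, are given with the hepatocyte markers. In resistant against lenvatinib 7 of 21 were called higher (against 4.14% of all tested genes), among them Hnf4a (4.05), Sox4 (2.31), Ehf (1.92) and Klf4 (1.82), with a median of 0.88, and against parental 0 (median 0.60).

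Genes whose level followed each member most closely were ranked by Pearson r of log2 CPM over the 8 libraries among 7828 tested genes with a mean of 20 CPM or more. The libraries come from 4 lines and 3 groups and are not independent, so r is a description and has no p. Krt7 was followed by Prdx5 (r = 0.997), Krt8 by Fam102b (0.993), Krt18 by Esrp2 (0.993), Krt19 by Elk3 (0.992) and Tspan8 by Marcks (0.992). Cd24a was followed by Capn1 (0.983), Epcam by Rhoc (0.979), Tm4sf4 by Naip2 (0.978), Prom1 by Lama3 (0.977) and Spp1 by Zfp219 (0.970). The copy Krt8-ps was among the 5 closest to Krt8 (0.981). The mean of the 10 standardised genes was followed most closely by Rbm47 (0.990), Pld2 (0.989) and Lsr (0.988).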

How the data were processed

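RNA of 8 mouse organoid libraries was sequenced after Trizol and column extraction with a stranded poly(A) kit, per the labels' protocols. Each library has 1 file as deposited by the authors, which lists raw read counts (whole numbers) of 45777 genes, per the file headers. The submitters' processing notes name StringTie 2.1.3b, HISAT2 2.1.0, Bowtie2 2.3.4.1, FastQC 0.11.7, Trimmomatic 0.38 and build mm10. How reads were counted, and with which strand setting, is not given in the sources used here.

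The main test was edgeR 4.0.16 (R 4.3.3): a quasi-likelihood F test on the counts of the 6 libraries from SNU-6624 or SNU-6625. The model held terms for line and group, libraries were scaled by TMM, and low genes were removed by filterByExpr (17038 genes kept, 2 residual and 2.53 prior degrees of freedom). Called means a Benjamini-Hochberg adjusted p under 0.05 over all genes tested. A standard error was taken as fold change (log2) over the root of F. The replicate number is the line, so it pairs the samples: over genes, deviations from the group means had correlations between same-line libraries of 0.504 (lenvatinib and parental), 0.288 (resistant and parental) and 0.291 (resistant and lenvatinib). Differences within a line use a prior count of 2 and have no test. No 2 libraries were counted as 1, since none held identical values.

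Transcript lengths came from GENCODE M21 transcripts paired with RefSeq, and positions and promoters from RefSeq tables of GRCm38.p6. DESeq2 1.42.0, limma-voom (limma 3.58.1), other scalings and filters, a fit without line, all 8 libraries and leaving out each library were the alternatives. The 10 genes, the gene lists and the tests were chosen with earlier results of these data known. All 10 genes are named. From each related list the 4 highest in parental lines and up to 4 called genes per comparison could be named, and the text gives part of these. Some members of the related lists are not reported here. Neighbours by Pearson r were the 5 closest per gene. Prom2, Krt1, Tm4sf20, Muc2 and Sox9 were named outside this rule after their values were seen.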

Additional observations from a re-analysis of the deposited data

Results flagged for a closer look

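In the 4 parental lines, Spp1 and Cd24a each had 1 line far from the other 3. Spp1 had 129 CPM in SNU-6621, with the gap to the next line 0.941 of the whole range, and Cd24a had 919 CPM in the same line, with a gap of 0.962 of the range, both above Dixon's 95% critical value for 4 values. Chance flags about 1 in 20 groups, and 10 genes were examined. That line does not enter the comparisons between groups, which use SNU-6624 and SNU-6625.

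In resistant against parental cultures, 3 of the 10 genes differed in direction between the 2 lines, and the difference between lines was not tested, since each line had 1 library per group. The log2 difference of Epcam was -0.078 in SNU-6624 and 0.92 in SNU-6625. That of Cd24a was -0.080 and 0.61, and that of Prom1 0.080 and -0.38. The values in SNU-6624 were all near 0.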

How the results depend on the processing

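Counts below are genes called, then members called (lower for lenvatinib against parental, higher for resistant against lenvatinib, where the values reported are 985 and 4, and 1061 and 7). For lenvatinib against parental all 8 libraries gave 651 and 3, DESeq2 3648 and 8, limma-voom 1697 and 6, no filter 174 and 2, a filter of 10 CPM in 2 libraries 1265 and 7, and a fit to only the 4 libraries compared, added after seeing the data, 7942 and 9. For resistant against lenvatinib DESeq2 gave 3552 and 8, no filter 324 and 4, and only the 4 libraries 234 and 3. Resistant against parental stayed at 0 and 0 with edgeR on all 6 libraries under these choices and with limma-voom, and DESeq2 called 1104 and 4. With each library left out in turn, lenvatinib against parental gave 0 to 7798 genes and 0 to 9 members, resistant against parental 0 to 5819 and 0 to 5, and resistant against lenvatinib 0 to 6286 and 0 to 9. Fits that leave an arm with 1 library assume that it varies like the other groups.

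Without the replicate block, lenvatinib against parental gave 1053 genes and 3 members and resistant against lenvatinib 1119 and 5. The block, in which line pairs the samples, changed no other call of the 10 genes than those given with the results (Spp1, Tm4sf4, Krt7 and Cd24a). Log2 fold changes of 3 genes changed sign when a library was left out. Epcam ranged from -0.62 to 0.056 in lenvatinib against parental and from -0.13 to 0.96 in resistant against parental, where Prom1 ranged from -0.34 to 0.026 (0.023 without parental SNU-6625) and Cd24a from -0.089 to 0.61. None of these was called with all libraries, and the cause was not tested. In the settings other than leaving out a library, each of the 10 genes kept its direction in each comparison. The summed parental level of the 10 genes, 13040.5 CPM, ranged from 12424 to 13407 CPM with a line left out. Spp1 rests on 34 and 59 counts in the lenvatinib libraries.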
